A study of Mus musculus with 3 samples.

Results

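The genes described here encode the proteins of the mitochondrial ribosome in the incisor enamel organ of mice with and without Stim1 in their ameloblasts. They were chosen by symbol: every listed gene named Mrpl or Mrps followed by a number and at most a letter a, b or c. This gave 76 of the 20937 genes in the table, 47 with an Mrpl symbol (large subunit) and 29 with an Mrps symbol (small subunit). The comparison of both subunits and of the family with mt-Rnr1 and mt-Rnr2, the rRNAs encoded by mitochondrial DNA, was set by the same choice.

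RNA of the whole incisor enamel organ, the epithelium that holds the enamel-forming ameloblasts, was sequenced in 3 libraries from mice aged 4 weeks, with 1 library per genotype. The Stim1 cKO library came from the genotype Stim1 fl/fl Cre+, with both alleles of Stim1 floxed. The Stim1 HT library came from Stim1 fl/wt Cre+, with 1 floxed allele, and the Stim1 Ctrl library from Stim1 fl/fl Cre-, which carries the floxed alleles but no recombinase. Cre was driven by the amelogenin promoter (AmelX-iCre), so the gene was to be removed in ameloblasts and to stay intact in the other cells of the dissected tissue. The 2 control libraries therefore differ from each other in the Cre transgene and in an allele of Stim1, and they were grouped as controls by the study. The methods of the study name male mice. They give n = 1 per genotype and do not say whether a sample was a single animal.

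The mitochondrial ribosome translates the few proteins that mitochondrial DNA encodes, all of them subunits of the respiratory chain and of ATP synthase. Its rRNAs are transcribed inside the mitochondrion, while every one of its proteins is encoded in the nucleus, made in the cytosol and imported. Part of the proteins descend from the bacterial ribosome and part were added during the evolution of mitochondria, and the mammalian particle is richer in protein than its bacterial counterpart. Loss of several of these genes impairs oxidative phosphorylation.

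The libraries held 28265960 counts in Stim1 Ctrl, 20216507 in Stim1 HT and 21496136 in Stim1 cKO, and levels are given as CPM, counts relative to library size, scaled with edgeR's TMM factors. Stim1 itself, the calcium sensor of the endoplasmic reticulum, stood at 186 CPM in Stim1 Ctrl, 129 in Stim1 HT and 72.8 in Stim1 cKO, the order that the labels give. Since each genotype has 1 library, variation among mice is unknown, and intervals given below are 95% intervals that cover counting error only. The libraries also differed in the markers of other tissues. All 10 skeletal muscle markers were lower in Stim1 cKO than in both controls (summed levels of 30896 CPM in Stim1 Ctrl, 22838 in Stim1 HT and 3885 in Stim1 cKO), as were all 8 proliferation markers (835, 664 and 321 CPM in the same order). The retina markers tested, 5 of 8, summed to 1.20, 1.52 and 960 CPM, the lens markers tested, 3 of 6, to 9.68, 9.95 and 189 CPM, and all of them exceeded both controls in Stim1 cKO. So did 5 of 6 neuron markers (summed levels of 159, 237 and 890 CPM). Of 8 bone and odontoblast markers, 6 were below both controls (65204, 42589 and 33676 CPM). Of 9 ameloblast markers 4 were below and 4 above both controls, with Amelx at 14088, 20016 and 2065 CPM in Stim1 Ctrl, Stim1 HT and Stim1 cKO, and Odam at 75.1, 196 and 694 CPM. The part of these tissue differences in the results below was not tested, and in whole tissue fewer cells of a type and less RNA per cell cannot be told apart.

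The mitochondrial ribosomal protein genes mostly shared an order of the libraries. Stim1 HT was highest for 73 of the 76 genes, and for 53 the order was Stim1 HT, then Stim1 Ctrl, then Stim1 cKO. Summed over the family, the level was 2418 CPM in Stim1 Ctrl, 3169 in Stim1 HT and 2076 in Stim1 cKO. The Stim1 cKO library was below both controls for 55 genes, between them for 20 and above both for Mrpl45 alone. Among the 14977 genes averaging 50 counts or more, which all members reach, 47.6% were below both controls and 38.3% above both, and 18.4% had the order that 53 members share. Stim1 HT was highest for 3798 of these 14977 genes. Over all genes tested 42.1% were below both controls.

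**Figure D1:**
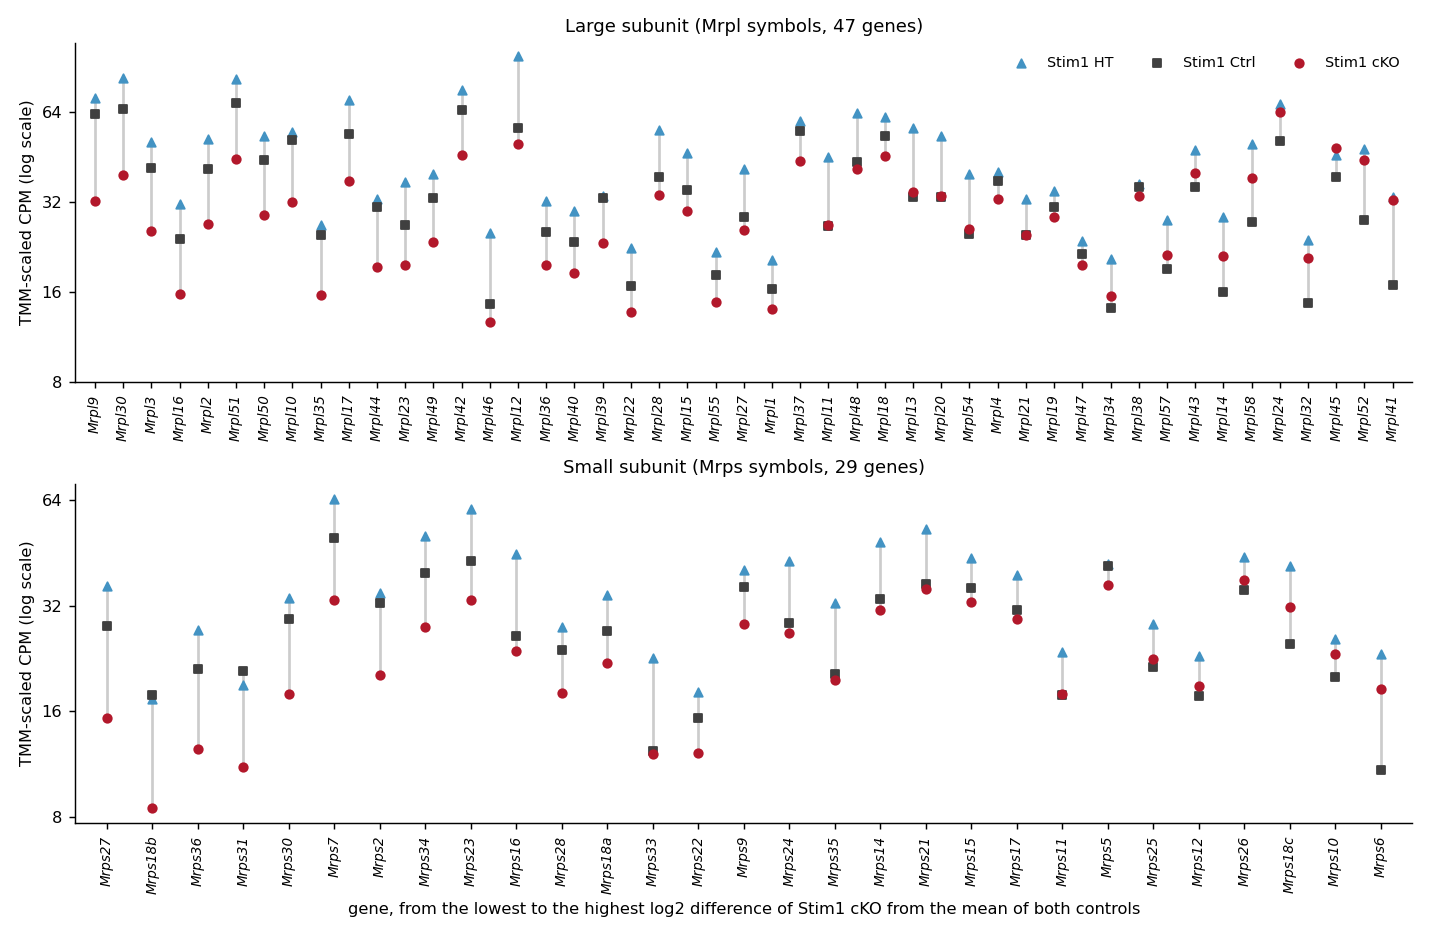
Level of each of the 76 mitochondrial ribosomal protein genes in the Stim1 HT (triangles), Stim1 Ctrl (squares) and Stim1 cKO (circles) libraries, in TMM-scaled CPM on a log scale, with 1 library per genotype and grey lines joining the lowest and the highest value. Genes run from the lowest to the highest log2 difference of Stim1 cKO from the mean of both controls. Stim1 HT is at the top for 73 genes, beside 3798 of the 14977 genes averaging 50 counts or more. Stim1 cKO lies below both controls for 55 of the 76 genes, a count that is 31 when libraries are scaled by their size alone.

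On the log2 scale, the median difference of Stim1 cKO from the mean of both controls was -0.42 over the family, beside 0.01 over all genes tested and -0.11 over genes averaging 50 counts or more. This difference rested mainly on Stim1 HT: the median was -0.64 against Stim1 HT and -0.20 against Stim1 Ctrl. The controls themselves lay 0.37 apart at the median, with Stim1 HT above Stim1 Ctrl for 74 of 76 genes (47.5% of genes averaging 50 counts or more). The gap between the controls was thus larger than the gap between Stim1 cKO and Stim1 Ctrl, an order that turned once gene length was taken into account (0.20 and -0.33). Counting intervals excluded no difference for 70 genes against Stim1 HT, all lower in Stim1 cKO. Against Stim1 Ctrl they did so for 41 genes that were lower and for 11 that were higher in Stim1 cKO. The same count was not made over all genes, so these numbers do not set the members apart from other genes.

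The direction against Stim1 Ctrl depended on how the libraries were scaled. With library size alone the family's median against Stim1 Ctrl was 0.11 in place of -0.20, and 31 members were below both controls, while the median of all genes against the mean of both controls moved from 0.01 to 0.27. With upper-quartile scaling the all-gene median was 0.14, the family's median against Stim1 Ctrl was -0.03 and 41 members were below both controls. Relative to the median of all genes tested, 68 of 76 members were lower, a count that no change of scaling can alter. It does depend on the genes that enter the median. The count was 63 with genes averaging 50 counts or more and 69 with no filter. As a share of all counts, with no scaling, the family took 0.220% in Stim1 Ctrl (0.218–0.222), 0.309% in Stim1 HT (0.306–0.311) and 0.234% in Stim1 cKO (0.232–0.236).

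No member was called between Stim1 cKO and the grouped controls at an adjusted p under 0.01 and a fold change over 2, beside 14 of 18702 genes (0.0749%) in the quasi-likelihood test of edgeR, adjusted after Benjamini and Hochberg. The lowest adjusted p of a member was 0.0659, for Mrpl9. DESeq2, the test named in the study's methods, also called no member, while it called 11.5% of the genes to which it gave an adjusted p, and the lowest adjusted p it gave a member was 0.0211, again for Mrpl9. At an unadjusted p under 0.05 edgeR passed 17 members, all lower in Stim1 cKO. Genes that passed and were lower numbered 2501 of all 18702 tested, and 2401 of the 14977 averaging 50 counts or more. In either direction 31.9% of all genes passed. DESeq2 passed 12 members, beside 25.9% of all genes in either direction. Both tests take their estimate of spread from the 2 controls, which differ in genotype, and Stim1 cKO has no replicate. Differences of members that follow are therefore descriptions of these 3 libraries.

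Counts of the members ran from 206 to 1935 per library. Per kilobase of exon, the highest large subunit genes were Mrpl12, Mrpl18 and Mrpl54, and the highest small subunit genes Mrps21, Mrps18c and Mrps28. Taking instead the length of the principal transcript, since rare isoforms lengthen the exon total of some genes, the leaders were Mrpl52, Mrpl42 and Mrpl30 and again Mrps21 and Mrps18c, now with Mrps34. Mrpl52, whose product has no bacterial counterpart, reached 66.4, 115 and 106 CPM per kilobase of principal transcript in Stim1 Ctrl, Stim1 HT and Stim1 cKO. Mrps21, which binds in the platform of the small subunit, reached 75.3, 108 and 73.1 CPM per kilobase on that scale. Which genes lead therefore depends on the length used, apart from Mrps21 and Mrps18c.

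Of the large subunit, 33 of 47 genes were below both controls, 13 between them and 1 above both. The gene with the lowest difference was Mrpl9 (chr3:94443318-94451130 on GRCm38, the build of all positions given here), which encodes a homolog of bacterial ribosomal protein bL9. Its level was 63.0 CPM in Stim1 Ctrl, 71.0 in Stim1 HT and 32.1 in Stim1 cKO, so that both controls lay near each other and Stim1 cKO well below, with a log2 difference of -1.06 from their mean. Its exons overlap those of Oaz3, and reads of both genes may not have been separated. Mrpl30 (chr1:37890477-37898535) had 65.3, 82.9 and 39.3 CPM in the same order of libraries and a log2 difference of -0.91. Mrpl3 and Mrpl16, homologs of the bacterial proteins uL3 and uL16 near the peptidyl transferase centre, followed. Mrpl3 stood at 41.4, 50.8 and 25.4 CPM in Stim1 Ctrl, Stim1 HT and Stim1 cKO (log2 difference -0.85). Mrpl16 stood at 24.0, 31.4 and 15.7 CPM (log2 difference -0.81).

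Groups by position in the particle, formed after the values were seen, spread within the range of the subunit. Mrpl2, Mrpl3 and Mrpl16, whose products lie near the peptidyl transferase centre, were all below both controls under TMM scaling. Their log2 differences were -0.78, -0.85 and -0.81. Mrpl4 was also below both controls, with a log2 difference of -0.24. In the lateral stalk, which recruits translation factors, 2 of 4 genes were below both controls (median -0.48). Mrpl12, the stalk protein that also binds the mitochondrial RNA polymerase, was at 56.4 CPM in Stim1 Ctrl, 98.2 in Stim1 HT and 49.8 in Stim1 cKO. Its difference of -0.58 lay mainly in the gap to Stim1 HT, as Stim1 cKO and Stim1 Ctrl were 0.18 apart on the log2 scale. Mrpl54, another protein of this region, had 643, 780 and 630 counts in Stim1 Ctrl, Stim1 HT and Stim1 cKO. After scaling it lay in Stim1 cKO between the controls, 0.06 above Stim1 Ctrl and 0.61 below Stim1 HT on the log2 scale. In the central protuberance Mrpl18, Mrpl38, Mrpl40, Mrpl46 and Mrpl48 were below both controls (median -0.35), while Mrpl58, also of this region, lay between them with 27.4, 49.7 and 38.5 CPM (0.06). Mrpl18 had 52.9, 61.6 and 45.4 CPM. Of 4 genes assigned to the exit tunnel, Mrpl4 not among them, 2 were below both controls and the median was -0.19.

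The gene above both controls, Mrpl45 (chr11:97315716-97329920), encodes the protein at the tunnel exit that anchors the ribosome to the inner membrane. It had 999 counts in Stim1 Ctrl, 902 in Stim1 HT and 1169 in Stim1 cKO, or 38.8, 45.8 and 48.3 CPM. Its level in Stim1 cKO exceeded Stim1 HT by 0.08 on the log2 scale, with a counting interval that reached below 0, and Stim1 Ctrl by 0.32. For the other large subunit genes with a positive difference, Stim1 cKO lay between a higher Stim1 HT and a lower Stim1 Ctrl. Mrpl41 (chr2:24974117-24975098) had 16.8 CPM in Stim1 Ctrl, 33.1 in Stim1 HT and 32.3 in Stim1 cKO, and the highest difference of the family, 0.45. Mrpl52 had 27.7, 48.0 and 44.2 CPM (0.28) and Mrpl32, a homolog of bL32 whose maturation in the matrix precedes ribosome assembly, had 14.7, 23.9 and 20.8 CPM (0.15). For these 3 genes Stim1 cKO was lower than Stim1 HT, so the sign of the difference is decided by Stim1 Ctrl.

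Of the small subunit, 22 of 29 genes were below both controls, 7 between them and none above both. Mrps27 (chr13:99344786-99415562), a pentatricopeptide repeat protein of the small subunit, had 28.1 CPM in Stim1 Ctrl, 36.3 in Stim1 HT and 15.3 in Stim1 cKO, a log2 difference of -1.06. Mrps18b (chr17:35910379-35916389) had 17.8, 17.3 and 8.51 CPM, so both controls were nearly level and Stim1 cKO 1.04 lower on the log2 scale. Mrps31 had 20.9, 19.0 and 11.1 CPM (log2 difference -0.85). Mrps18b and Mrps31 were the only members, of 76, highest in Stim1 Ctrl. Exons of Mrps27 overlap those of 6430562O15Rik, and exons of Mrps18b those of Gm16279.

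Mrps36 had 21.1, 27.3 and 12.5 CPM in Stim1 Ctrl, Stim1 HT and Stim1 cKO (log2 difference -0.94). Despite its symbol, its product is a subunit of the 2-oxoglutarate dehydrogenase complex and is absent from structures of the mitochondrial ribosome. At the other end, Mrps6 (chr16:92058270-92112227), a homolog of bS6 in the platform, had 10.9 CPM in Stim1 Ctrl, 23.4 in Stim1 HT and 18.5 in Stim1 cKO, a log2 difference of 0.21. Its gap between the controls, 1.10 on the log2 scale, was the widest of the family, and its locus overlaps Slc5a3. Mrps10 had 20.1, 25.7 and 23.3 CPM (0.04) and Mrps26 had 35.4, 44.0 and 37.9 CPM (-0.06). Mrps12, the homolog of uS12 at the decoding centre, was at 17.7, 23.0 and 18.9 CPM (-0.10), and Mrps28, one of the leaders per kilobase of exon, at 23.9, 27.8 and 18.1 CPM (-0.51). None of the small subunit genes with a difference above 0 exceeded Stim1 HT.

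The 3 Mrps18 paralogs, products of duplications of an ancestral gene, differed from each other. In structures the product of Mrps18a is a large subunit protein and those of Mrps18b and Mrps18c are small subunit proteins. Mrps18b was at about the same level in both controls and lowest in Stim1 cKO. Mrps18a had 27.0, 34.4 and 21.9 CPM in Stim1 Ctrl, Stim1 HT and Stim1 cKO, a difference of -0.47 in the family's usual order. Mrps18c had 24.9, 41.6 and 31.7 CPM, with Stim1 cKO between the controls and a difference of -0.02. Stim1 cKO against Stim1 Ctrl was -1.06 for Mrps18b, -0.30 for Mrps18a and 0.35 for Mrps18c on the log2 scale. The counting interval of this ratio lay below 0 for Mrps18a and Mrps18b and above 0 for Mrps18c.

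Both subunits had nearly the same profile. The median log2 difference was -0.42 for the large and -0.43 for the small subunit. Against Stim1 HT the medians were -0.67 and -0.64, against Stim1 Ctrl -0.21 and -0.14, and between the controls 0.38 and 0.37. The summed counts of the large subunit genes were 2.03 times those of the small subunit genes in Stim1 Ctrl (1.99–2.06), 2.04 times in Stim1 HT and 2.06 times in Stim1 cKO (2.02–2.10). The intervals of these ratios overlapped. Placing Mrps18a and Mrps30 in the large subunit, where structures show their products, and leaving out Mrps36 gave 2.32, 2.32 and 2.30 in the same order, again nearly level. Mrps30, whose product lies in the large subunit, had 29.4, 33.7 and 17.9 CPM (log2 difference -0.81). The difference between the subunits' medians was 0.02 against the mean of both controls. Against Stim1 Ctrl alone it was -0.066 and against Stim1 HT alone -0.030, values with an SD of 0.03. The sign of the difference changed under 4 of the other settings or summaries given in the closing section, these single-control values among them.

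Split by the origin of the proteins, the medians were level in the large subunit and differed in the small subunit. Assigned by structure, the large subunit had 29 genes with a bacterial homolog and 20 specific to mitochondria, with medians of -0.43 each. In the small subunit the 16 genes with a bacterial homolog had a median of -0.29 and the 10 specific to mitochondria a median of -0.54. In the latter group 8 of 10 genes were below both controls, and in the former 11 of 16. Mrps18a and Mrps18b, though paralogs of Mrps18c, counted as specific to mitochondria. Mitoribosome proteins with other symbols, described below, were not part of this split, and the gap in the small subunit was not tested.

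**Figure D2:**
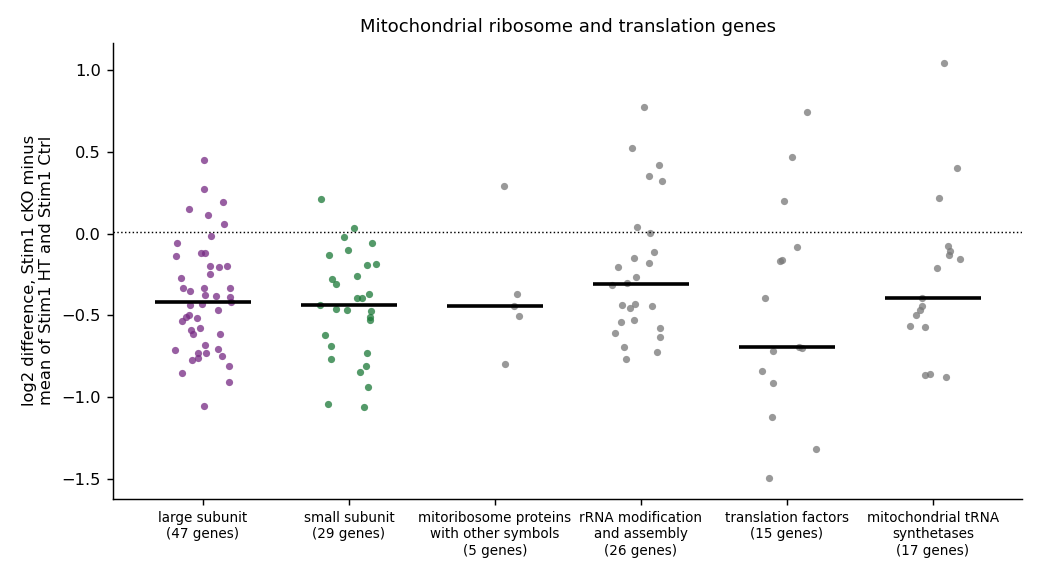
Log2 difference of Stim1 cKO from the mean of both controls for each gene (points, spread sideways for legibility) of the large and small subunit and of 4 further lists of mitochondrial translation, with black bars at the medians and a dotted line at the median of all genes tested (0.01). Both subunits centre near the same value (-0.42 and -0.43), and these medians keep their sign with library size scaling. The list labelled translation factors, which also holds genes that act beside them, reaches lowest.

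The rRNAs of the mitochondrial ribosome stood far higher in Stim1 cKO, unlike its proteins. The rRNA of the small subunit, mt-Rnr1, had 6888 counts in Stim1 Ctrl, 6362 in Stim1 HT and 51616 in Stim1 cKO, or 268, 323 and 2132 CPM. The rRNA of the large subunit, mt-Rnr2, had 16585, 16740 and 91211 counts, or 644, 850 and 3768 CPM. Stim1 HT exceeded Stim1 Ctrl by 0.27 for mt-Rnr1 and by 0.40 for mt-Rnr2 on the log2 scale, and Stim1 cKO was far above both. The fitted log2 fold change was 2.85 for mt-Rnr1 and 2.33 for mt-Rnr2, with edgeR adjusted p-values of 0.0201 and 0.0323, short of the threshold of 0.01. DESeq2 gave adjusted p-values of 2.04e-18 and 3.37e-11 for the same genes.

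Set against the proteins of its own subunit, mt-Rnr1 had 0.335 counts for each count of the small subunit genes in Stim1 Ctrl (0.326–0.344), 0.310 in Stim1 HT (0.301–0.319) and 3.14 in Stim1 cKO (3.09–3.20). For mt-Rnr2 over the large subunit genes the ratio was 0.398 in Stim1 Ctrl (0.391–0.405), 0.400 in Stim1 HT (0.393–0.407) and 2.70 in Stim1 cKO (2.66–2.73). These ratios are taken within a library and do not depend on its scaling. Between the controls the mt-Rnr2 ratio was level and the mt-Rnr1 ratio differed slightly, with intervals that did not overlap. Like the proteins, both rRNAs had more CPM in Stim1 HT than in Stim1 Ctrl. The balance between the rRNAs changed as well, the counts of mt-Rnr2 over those of mt-Rnr1 being 2.41 in Stim1 Ctrl (2.34–2.48), 2.63 in Stim1 HT (2.56–2.71) and 1.77 in Stim1 cKO (1.75–1.79).

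**Figure D3:**
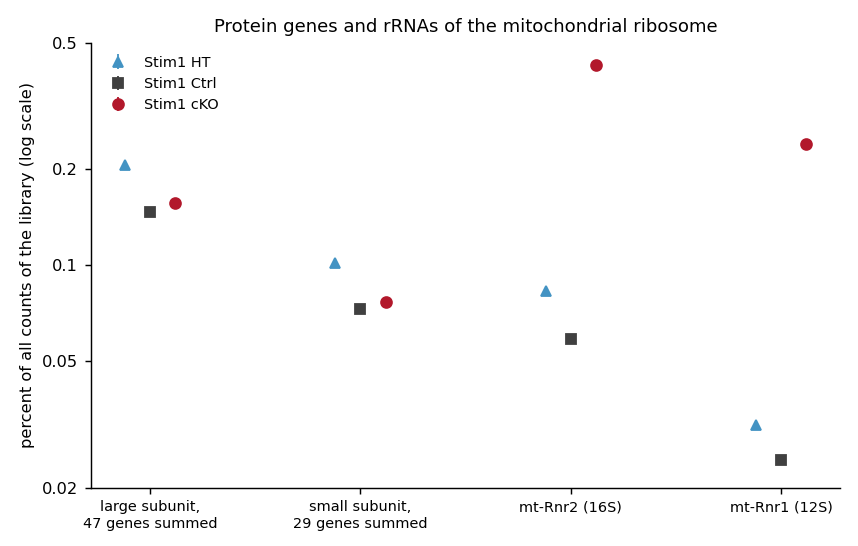
Percent of all counts of each library (log scale) taken by the summed large and small subunit genes and by mt-Rnr2 and mt-Rnr1, the rRNAs of the large and the small subunit, with 95% intervals for counting error that are smaller than the symbols. The protein genes are highest in Stim1 HT and nearly level in Stim1 cKO and Stim1 Ctrl as shares of all counts, whereas both rRNAs are highest in Stim1 cKO (0.424% and 0.240%).

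The other genes of the mitochondrial genome were also higher in Stim1 cKO, at 2.73% of counts in Stim1 Ctrl, 2.47% in Stim1 HT and 4.53% in Stim1 cKO, a smaller difference than that of the rRNAs. The methods of the study name a poly-A selection, which keeps only a part of the mitochondrial rRNA, and the labels name another library kit. How much of the rRNA difference lies in its capture was not tested.

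The genes that build and use the ribosome included genes below and genes above both controls. Of 6 mitoribosome proteins with other symbols, 5 were tested and 4 were below both controls (median log2 difference -0.44). Ptcd3, a small subunit protein, had 43.0, 43.3 and 24.9 CPM in Stim1 Ctrl, Stim1 HT and Stim1 cKO (-0.79), and Gadd45gip1, a large subunit protein, had 31.3, 41.3 and 25.4 CPM (-0.50). Aurkaip1 had 44.6, 57.3 and 39.2 CPM (-0.37), and Chchd1 14.1, 36.1 and 27.6 CPM (0.29). Of 27 genes of rRNA modification and ribosome assembly, 26 were tested, 17 below and 5 above both controls (median -0.31). Among them the GTPase Noa1 had 21.6, 18.6 and 11.8 CPM (-0.77) and the helicase Ddx28 12.3, 14.0 and 7.93 CPM (-0.72). The GTPase Mtg2 had 12.3, 16.5 and 20.5 CPM (0.52) and the assembly factor Mettl17 12.4, 11.4 and 20.4 CPM (0.78), both above the controls.

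The list called translation factors here also holds genes that act beside them, among them Oxa1l, Lrpprc, Slirp and Mtfmt. Of its 17 genes, 15 were tested, 9 below and 3 above both controls (median -0.69). Mrrf, which recycles ribosomes after termination, had 24.6 CPM in Stim1 Ctrl, 26.4 in Stim1 HT and 9.05 in Stim1 cKO, a log2 difference of -1.49. Tufm, the elongation factor that brings tRNAs to the ribosome, had 89.4, 84.9 and 34.9 CPM (-1.32). For both, the controls were close together and Stim1 cKO was well below. Their edgeR adjusted p-values were 0.0465 for Mrrf and 0.0445 for Tufm. The initiation factor Mtif2 had 31.9, 30.9 and 43.4 CPM (0.47) and the elongation factor Guf1 30.8, 33.4 and 53.7 CPM (0.74), both above the controls. Of the 17 tRNA synthetases, 13 were below and 3 above both controls (median -0.40). Ears2 had 14.0, 15.9 and 8.10 CPM (-0.88) and Fars2 24.4, 26.3 and 14.0 CPM (-0.86). Cars2 had 13.7, 16.9 and 20.1 CPM (0.40). Lars2 had 353, 502 and 867 CPM (1.04), beside 706, 832 and 1126 CPM summed over its list.

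No gene of these 4 lists was called by edgeR, and DESeq2 called 2 translation factors, Mrrf and Tufm, at adjusted p-values of 0.00818 and 0.00145. These are 2 of 15 genes, beside the 11.5% of all genes that DESeq2 called. A higher level in Stim1 HT than in Stim1 Ctrl was found for 5 of 5 other-symbol proteins, 19 of 26 assembly genes, 6 of 15 translation factors and 9 of 17 synthetases. Of the cytosolic ribosomal protein genes 75 of 76 were higher in Stim1 HT, with a median of 0.70 between the controls, and of the nuclear-encoded complex I subunits 35 of 36, with a median of 0.46. Their median log2 differences of Stim1 cKO from the mean of both controls, -0.39 and -0.48, were near the -0.42 of the mitochondrial ribosomal proteins. Below both controls were 42 of 76 cytosolic ribosomal protein genes and 24 of 36 complex I genes. These comparisons use the same control libraries and are values side by side.

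The gap between the controls also followed the length of the genes. Over genes averaging 50 counts or more, the median of Stim1 HT against Stim1 Ctrl ran from 0.32 in the shortest to -0.24 in the longest of 5 equal groups by exon length. Of the members, 38 of 76 fell in the shortest group. Their median there was 0.41, and in the longer groups it was 0.29, 0.26, 0.20 and 0.47, with 6 genes in the last. Taken from the median of all genes of the same length, in 20 length bins, the members' gap between the controls was 0.20, positive for 61 of 76 genes. The same step left the difference of Stim1 cKO from both controls at -0.46 and moved that from Stim1 Ctrl alone from -0.20 to -0.33. Across the 76 genes of these libraries, Spearman's rho of the principal transcript length was -0.30 with the gap between the controls and -0.09 with the difference of Stim1 cKO.

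**Figure D4:**
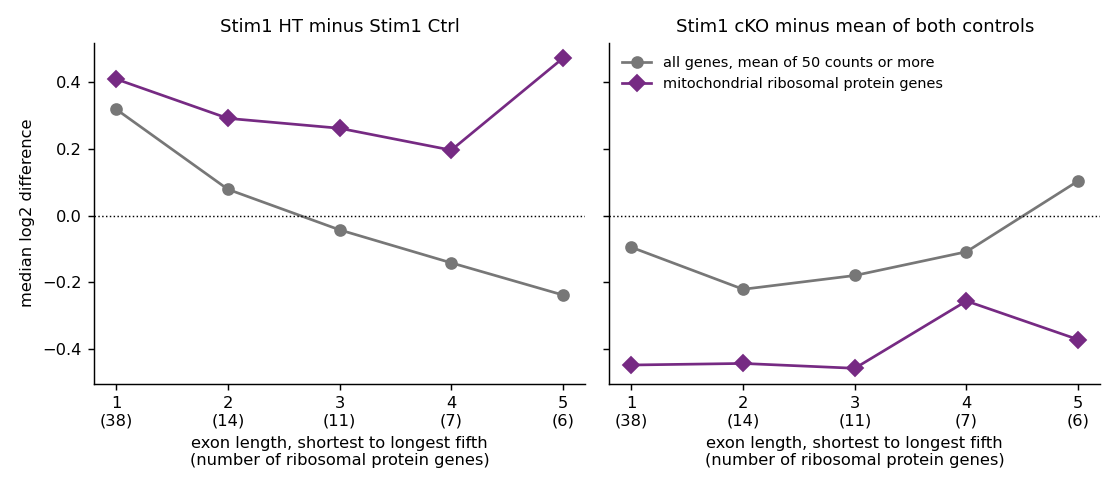
Median log2 difference between Stim1 HT and Stim1 Ctrl (left) and between Stim1 cKO and the mean of both controls (right) in 5 equal groups of genes by exon length, shortest to longest, for all genes averaging 50 counts or more (circles) and for the mitochondrial ribosomal protein genes (diamonds, number per group in brackets). On the left all genes fall from 0.32 to -0.24 with length while the members stay between 0.20 and 0.47; on the right the members lie below all genes in every group.

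The members lie on 17 chromosomes, with at most 11 on one. Exons of 31 members overlap those of another gene, 27 of them a gene on the opposite strand, and whether the counting used strand is not given in the sources used here. Among the genes named here these include Mrpl3, Mrpl9, Mrpl12, Mrpl18, Mrpl46, Mrpl48, Mrps6, Mrps18b, Mrps18c, Mrps26, Mrps27, Mrps30 and Mrps34, and their counts are uncertain to that extent. The 45 members without such an overlap had a median log2 difference of -0.43, with 34 below both controls, and the 31 with an overlap had -0.39, with 21 below both.

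Promoter windows, 250 bases before to 50 after the start, were taken from RefSeq on GRCm38.p6 for 67 of the 76 members. They were searched on both strands for 4 sequences known from promoters of nuclear genes for mitochondrial proteins or of growth genes: a core of the NRF1 site (GCATGCGC), of the ETS site bound by GABPA (CCGGAAGT), of the YY1 site (AAGATGGCG) and the E-box CACGTG. A match describes the letters only. The NRF1 core was in 10.4% of the members' genes, beside 5.50% of genes averaging 50 counts or more and 3.05% of all genes with a window. For the ETS core these shares were 16.4%, 8.10% and 4.31%, for the YY1 core 11.9%, 3.22% and 1.64%, and for the E-box 7.46%, 11.1% and 8.09%. In all, 27 members held at least 1 of the 4, so most held none.

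Members with a core spanned the range of differences. The following stretches before the start show, for the NRF1 and the ETS core, the member with the lowest and the one with the highest log2 difference among those whose match lies outside annotated exons, with the core in capitals. They lie on the plus strand at chr3:94443280-94443317, chr11:58171601-58171660, chr13:99344707-99344774 and chr5:100798599-100798626, in the order shown.
Mrpl9, NRF1 core: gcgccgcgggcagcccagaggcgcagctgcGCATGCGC
Mrpl22, NRF1 core: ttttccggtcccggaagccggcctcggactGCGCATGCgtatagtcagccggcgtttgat
Mrps27, ETS core: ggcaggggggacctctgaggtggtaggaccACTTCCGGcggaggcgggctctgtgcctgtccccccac
Mrps18c, ETS core: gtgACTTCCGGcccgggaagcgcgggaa

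The capitals in Mrpl22, Mrps27 and Mrps18c are the core read on the opposite strand, and the core of Mrpl9 overlaps a second copy on that strand. Mrps27 and Mrps18c, both with an ETS core, stand near opposite ends of the small subunit, at log2 differences of -1.06 and -0.02. The 7 members with an NRF1 core had a median difference of -0.71, from -1.06 to 0.15, and members with a window but no NRF1 core one of -0.40. For the 11 with an ETS core the median was -0.35, from -1.06 to 0.28, and without it -0.47. Mrpl32, among the highest of the large subunit, also held the NRF1 core.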

How the data were processed

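RNA of the incisor enamel organ was sequenced in 3 libraries, 1 per genotype. The authors trimmed the reads, aligned them with STAR and deposited raw counts per gene symbol, without normalization; FastQC and DESeq2 are also named in the submitters' processing notes. The genome build, annotation, counting tool and strand setting are not given in the sources used here. All 20937 listed genes have at least 1 count in every library. Total counts are given with the results, and precision is limited by the number of libraries. Samples were grouped by the labelled genotype.

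The test set Stim1 cKO against both controls as a group in edgeR 4.0.16, run in R 4.3.3 (TMM factors, filterByExpr, quasi-likelihood test, Benjamini-Hochberg adjustment over 18702 genes), and calls needed an adjusted p under 0.01 and a fold change over 2. The step was also run on simulated counts, with changes larger than that of any member, so the simulation does not show how it handles differences of the members' size. Log2 differences of TMM-scaled CPM were taken without a pseudocount. Counting intervals for ratios of counts were exact binomial and for shares Wilson intervals. Gene positions and exon lengths were those of GENCODE M21 (GRCm38), which holds 20712 of the symbols and all 76 members. Alternatives were DESeq2 1.42.0, other scalings and filters, leaving out a control, exon length bins, subunits by structure and other thresholds. Length by principal transcript, leaving out members with overlapping exons, and the settings for the gap between controls were added after seeing the data.

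The members and all lists were chosen with earlier results of these data known. Named in each subunit were the 4 genes with the lowest and the 4 with the highest log2 difference, the 3 highest per kilobase of exon, genes above both controls, genes picked for their roles (the Mrps18 paralogs, Mrpl12, Mrps12, Mrps30 and Mrps36), the rRNAs, and the 2 lowest and 2 highest of each list. Groups by position in the particle, the leaders per kilobase of principal transcript and the genes shown for their promoters are exceptions to this rule, chosen with their values in view.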

Additional observations from a re-analysis of the deposited data

How the results depend on the processing

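No member was called by edgeR, DESeq2 or any other setting run, and the medians of both subunits stayed below 0 in all of them (large -0.16 to -0.67, small -0.16 to -0.64), while at an unadjusted p under 0.05 edgeR passed 17 members and DESeq2 12. The number of all genes called, 14, was 1987 with DESeq2, 50 with RLE scaling, 138 with upper-quartile scaling, 6 with library size only, 907 with no filter, 6 with genes averaging 50 counts or more and 1811 at an adjusted p under 0.05. Members below both controls were 31 of 76 with library size only and 34 of the 45 left without overlapping exons. The difference between the subunits' medians, 0.02, was -0.10 with exon length bins, 0.049 with means, -0.040 with subunits by structure, and -0.066 to -0.030 without a control. The ratio of large to small subunit counts was 2.30, 2.32 and 2.32 by structure in Stim1 cKO, Stim1 HT and Stim1 Ctrl, 2.11 per exon length in Stim1 cKO and 1.98 per principal transcript length in Stim1 Ctrl. For mt-Rnr1 the log2 fold change passed the threshold at 2.85 with DESeq2 and at 2.82 with no filter (adjusted p 0.00587), and that of mt-Rnr2 at 2.33 with DESeq2. The gap between the controls was 0.20 with exon length bins.

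Signs turned for members near 0. Mrps10 was -0.0071 with no filter. Mrps12 was 0.013 with upper-quartile scaling and 0.14 with library size only, Mrps18c 0.049 and 0.18, and Mrps26 0.055 and 0.19. With genes averaging 50 counts or more, Mrps18c was 0.037 and Mrps26 0.039. Leaving out Stim1 HT or Stim1 Ctrl, with no test, gave -0.20 to 0.49 for Mrpl32, -0.035 to 0.93 for Mrpl41, -0.12 to 0.66 for Mrpl52, -0.61 to 0.044 for Mrpl54, -0.14 to 0.20 for Mrps10, -0.28 to 0.076 for Mrps12, -0.39 to 0.33 for Mrps18c, -0.21 to 0.083 for Mrps26 and -0.34 to 0.75 for Mrps6. The cause of these changes was not tested, apart from the smaller number of genes or libraries that some settings use by construction.

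No paired analysis was possible because each genotype has 1 library. The spread between mice is unknown, so the family's place below both controls cannot be told apart from differences between 3 dissections, and the gap between the controls is of similar size. Against Stim1 Ctrl the counting intervals of 24 of 76 members span 0, beside 6 against Stim1 HT. For those members counting error alone leaves the direction unsettled.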
